A study of Mus musculus with 12 samples.

Results

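The comparison described here sets dendritic cells that matured with LPS in the presence of all-trans-retinoic acid (RA) against cells that matured with LPS and no retinoid. It takes the 4 arrays labelled RA+LPS and control+LPS, of 12 in the series, 1 of each per mouse strain, and reads every one of the 45101 probe sets on them. Marrow cells of 6 to 8 week old BALB/c and BL6 mice were cultured with GM-CSF at 20 ng/ml over 10 days, which yields dendritic cells together with macrophage-like cells. RA was labelled as 10 nmol, with a volume given in only some of the labels, and was in the culture from its beginning. LPS was at 1 ug/ml, and when it was added was not stated apart from the other reagents. The other arrays hold RA without LPS, no retinoid without LPS, and Ro, an antagonist of the alpha form of the RA receptor (labelled 100 nmol), with and without LPS, again in both strains. In every condition the first replicate came from BALB/c and the second from BL6, so that each strain gives 1 array against 1. Strain and any batch shared by arrays of 1 replicate number cannot be told apart.

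RA is made from vitamin A by dehydrogenases in gut dendritic cells and other tissues, and acts through nuclear receptors that bind DNA as partners of the retinoid X receptors. LPS is sensed by a Toll-like receptor. It switches on cytokines, costimulatory molecules and, through secreted interferon, a large set of antiviral genes. Dendritic cells exposed to RA are known for steering T cells toward gut homing and toward regulatory fates.

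The arrays carried the labelled cells' genes. Among conventional dendritic cell markers 15 of 20 were above background on at least 1 of the 4 arrays, and Flt3, Cd209a, Xcr1, Itgae and Kmo were not; background is the highest array median, a signal of 41.8. Of macrophage markers 19 of 21 were above it, of granulocyte markers 13 of 19, of B cell markers 5 of 13 and of T and NK cell markers 2 of 16. Array medians ran from 21.4 to 24.2 over the 4 arrays. In whole cultures, fewer cells of a type and less RNA per cell cannot be told apart.

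With RA and LPS together, single genes such as Cp, Ccl8 and Fstl1 lay higher in both strains and S100a4, Pdzk1ip1 and Osm lower in both. Of the gene lists, glycolysis and hypoxia genes lay lower in both strains in 20 of 25 (80.0%, against 27.1% of all genes), and across all genes the strains showed little accord. The 12429 genes tested were those with a probe set above its array's median on at least 2 of 12 arrays. Changes are differences of log2(signal + 16), given relative to the median change of all tested genes, so that 0 is the median gene. No gene passed an adjusted p of 0.05 in limma over both strains: 653 genes were higher at an unadjusted p under 0.05 (5.25%) and 486 were lower (3.91%), and the smallest adjusted p was 0.114. Over all 45101 probe sets none passed either, with 3448 at an unadjusted p under 0.05. An exact permutation test of 2 arrays against 2 that leaves out the pairing by strain cannot go below p = 0.333. The count over both strains changed when some single arrays were left out. Without the BALB/c RA+LPS array, the RA+LPS group is the BL6 array alone. Changes in that fit, such as -3.57 for S100a4 and -3.65 for Pdzk1ip1, therefore cannot show an effect shared by both strains. The tests within 1 strain also turned on single arrays: 78 genes passed in BL6, and 0 to 986 did when each of the 8 arrays outside the comparison was left out. The values below are therefore given as values, and none of them is a rise or a fall past the threshold unless this is stated.

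Across the 12429 genes the strains moved the same way in 54.1%, with 3364 genes (27.1%) higher in both and 3364 (27.1%) lower in both. A change of at least 2-fold in the same direction was seen for 40 higher genes (0.322%) and 60 lower genes (0.483%), and 33 genes (0.266%) were at least 2-fold apart from the median gene in opposite directions. The BL6 arrays differed more than the BALB/c arrays did: 817 genes (6.57%) were at least 2-fold higher and 750 (6.03%) lower in BL6, against 255 (2.05%) each way in BALB/c. The 100 genes that moved 2-fold the same way were thus 19.6% of those in BALB/c and 6.38% of those in BL6. The BL6 control+LPS array, on which every BL6 change with LPS rests, was the dimmest of the series. It had the lowest median signal (21.4) and the lowest share of probe sets above background (37.8%). On the BL6 RA+LPS array these were 24.2 and 40.6%. Whether the dim array widened the BL6 changes was not tested. Without LPS, where the arrays are different ones, RA moved 66.7% of the same genes in 1 direction in both strains, 98 of them 2-fold or more higher in both and 136 lower, and 9 in opposite directions.

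**Figure D1:**
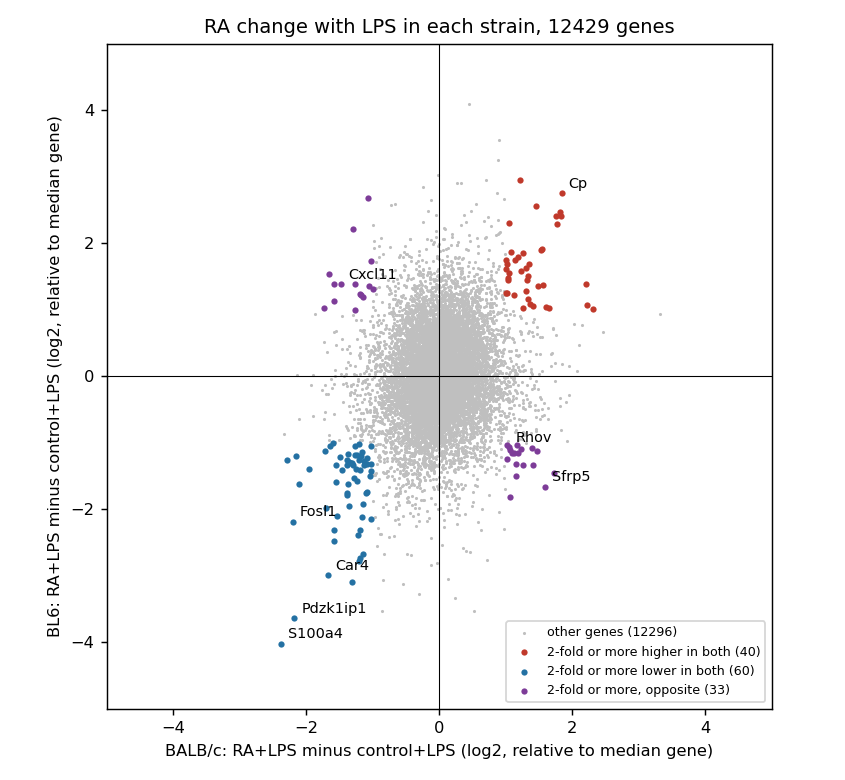
Change with RA in LPS-treated cultures in BALB/c (x axis) and BL6 (y axis), in log2 units relative to the median gene; each point is 1 of 12429 genes, and no error is shown because each strain has 1 array per condition. The cloud is wider along the BL6 axis, 40 genes lie in the upper right and 60 in the lower left corner beyond a 2-fold change in both, and 33 lie in the opposite corners.

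Among the genes higher in both strains, Cp led. It encodes ceruloplasmin, a copper-carrying ferroxidase. Its signal was 1088 with LPS alone and 3792 with RA and LPS in BALB/c, and 687 and 5375 in BL6, so that the RA arrays lay above both control arrays. The change was 1.84 in BALB/c and 2.76 in BL6, and 2.29 ± 0.55 (standard error) over both, with a limma adjusted p of 0.338. Cp was higher with RA without LPS too, by 1.60 and 3.69.

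The monocyte-attracting chemokine gene Ccl8 had the smallest p among higher genes. Its signal went from 114 to 428 in BALB/c and from 225 to 1439 in BL6. The change was 2.11 ± 0.32 (4.31-fold, limma adjusted p = 0.114), and in BL6 alone it passed (2.41 ± 0.42). Ccl24, which attracts eosinophils, was at 230 and 651 in BALB/c and at 92.8 and 299.9 in BL6 (1.41 ± 0.47). Another chemokine gene, Ccl12, was higher by 1.34 in BALB/c and 1.17 in BL6. All 3 were also higher with RA where LPS was absent. Over the whole list of 23 tested chemokine genes, however, 8 were higher in both strains and 6 lower in both, with Cxcl9, a chemokine of the interferon gamma response, at -2.29 and -1.26.

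Of 22 tested matrix genes 9 were higher in both strains and 5 lower in both, with medians of 0.17 and 0.22. At an unadjusted limma p under 0.05, 2 were higher (9.09%, against 5.25% of all genes) and 3 lower (13.6%, against 3.91%). Among the genes of largest change, some act in the extracellular matrix or are secreted. Fstl1, a secreted glycoprotein gene related to follistatin, was at 572 with LPS alone and 1922 with RA in BALB/c, and at 355 and 2054 in BL6 (2.02 ± 0.53, 4.06-fold). Tgfbi, a matrix protein gene named for its induction by TGF-beta, was at 274 and 930 in BALB/c and at 646 and 3964 in BL6 (2.07 ± 0.64). Lox, the lysyl oxidase that cross-links collagen, was at 364 and 1039 in BALB/c and at 90.3 and 435 in BL6 (1.70 ± 0.58). These genes did not share a pattern without LPS: Fstl1 was higher there by 1.38 and 1.81, Lox was within 0.34 of the median gene, and Tgfbi was lower with RA in both strains. The interaction with LPS did not pass for any of the 3 (limma adjusted p between 0.826 and 0.961). Htra1, a secreted serine protease gene, had signals of 120 and 635 in BALB/c and 125 and 308 in BL6, and changes of 2.31 and 1.02.

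The other named higher genes were dimmer. Cyp1b1, a cytochrome P450 gene, was at 88.6 and 339.6 in BALB/c but at 3.98 and 109 in BL6. For Npl (a sialic acid lyase), C1s1 (a complement protease) and Derl3 (a factor of protein disposal from the endoplasmic reticulum) the mean of the control arrays lay below background, so no fold is given. Slc43a3, a nucleobase transporter gene, was at 74.4 and 223 in BALB/c and at 46.1 and 400.4 in BL6. The C-type lectin family gene Cd93 was at 57.4 and 164 in BALB/c and at 38.4 and 183 in BL6, although its other probe sets did not all move the same way. Mfge8, which tags dying cells for uptake, was outside the rule for named genes and chosen after its values were seen: it was higher by 1.18 and 1.80, on signals from 627 to 2887.

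Of the genes lower in both strains, S100a4 changed most. It encodes a calcium-binding protein of motile cells. The signal was 992 with LPS alone and 170 with RA and LPS in BALB/c, and 4320 and 288 in BL6. The change was -2.38 in BALB/c and -4.02 in BL6, and -3.21 ± 0.44 over both (9.28-fold lower, limma adjusted p = 0.114). S100a6, its neighbour in the same family, was at 778 and 327 in BALB/c and at 2428 and 624 in BL6 (-1.65 ± 0.26). Both passed as lower in BL6 alone, and both were lower with RA without LPS in each strain. Of 19 tested S100 and annexin genes 11 were lower in both strains (57.9%, against 27.1% of all genes). At an unadjusted limma p under 0.05, 6 were lower (31.6%, against 3.91% of all genes): S100a4, S100a6, Ahnak, S100a10, Anxa1 and Anxa2. The list's median was -0.16 in BALB/c and -0.28 in BL6. A pair of list members that mark granulocytes stood the other way in BALB/c, S100a9 at 2.11 and S100a8 at 1.46.

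Pdzk1ip1, a small membrane protein gene, was at 639 and 123 in BALB/c and at 1473 and 120.1 in BL6. Its change was -2.92 ± 0.38 (7.57-fold lower, limma adjusted p = 0.114), with -0.25 and 0.09 without LPS. Both RA+LPS signals were thus close to each other while the control signals differed by strain. Fosl1, a member of the AP-1 transcription factors, was at 486 and 89.2 in BALB/c and at 206 and 39.2 in BL6 (-2.21 ± 0.57). It belongs to a list of 30 immediate early genes. Of these, 14 were lower in both strains (46.7%, against 27.1% of all genes) and 2 higher in both. In that list Btg2 (-0.99 and -1.49, not shared by its only other probe set) and Junb (-0.50 and -1.49) were lower in both, while Egr1 was at -0.13 in BALB/c and 2.65 in BL6.

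Osm, the gene of the cytokine oncostatin M, was 1661 with LPS alone and 618 with RA in BALB/c, and 1766 and 505 in BL6. Its change was -1.67 ± 0.25 (3.17-fold lower, limma adjusted p = 0.175). Without LPS the values were 0.27 in BALB/c and 1.05 in BL6, and the interaction with LPS gave an adjusted p of 0.470, the smallest reached and shared with Arg1. Dcstamp, which acts in the fusion of osteoclasts and macrophages, was at 2376 and 752 in BALB/c and at 2288 and 456 in BL6 (-2.04 ± 0.34), and was lower without LPS as well. Car4, a carbonic anhydrase gene, was at 952 and 277 in BALB/c and at 1102 and 143 in BL6 (-2.34 ± 0.66). Ms4a8a, a membrane protein gene, was at 117 and 13.6 in BALB/c and at 877 and 316 in BL6 (-1.88 ± 0.84). Inhbb, Ttc25, Ackr3 and Plagl1 completed the group with at least 1 group mean below background.

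**Figure D2:**
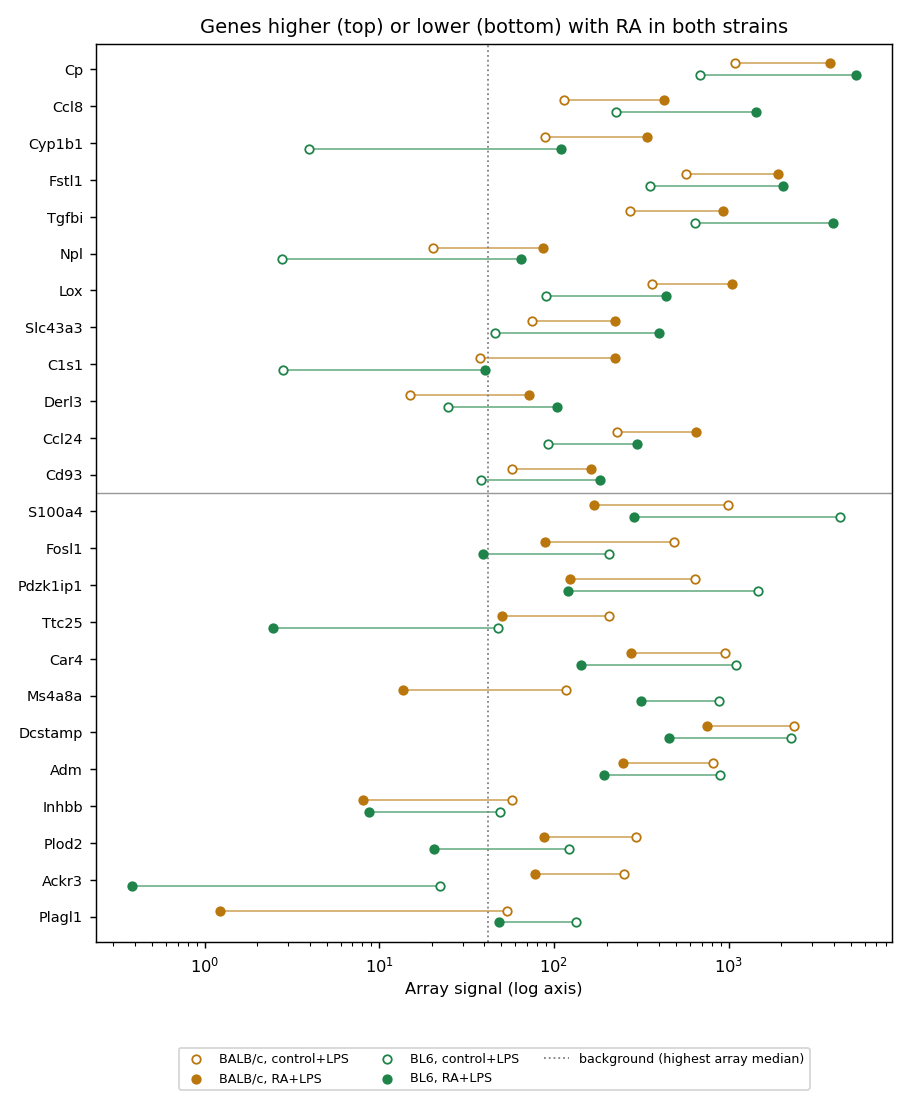
Signals (x axis, log scale) of the 12 genes with the largest change higher in both strains and the 12 lower in both; open points are control+LPS arrays, filled points RA+LPS arrays, colours are strains, and lines join the 2 arrays of a strain. Cp, Fstl1, Ccl8, S100a4 and Pdzk1ip1 are well above the dotted background line on all 4 arrays, while Npl, C1s1, Ttc25 and Ackr3 start or end below it.

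Of the 40 genes at least 2-fold higher in both strains with LPS, 27 (67.5%) were also higher in both with RA alone, and of the 60 lower genes 28 (46.7%) were also lower in both, against 33.3% of all tested genes. These RA changes come from different arrays. Over all 12429 genes the changes with and without LPS correlated with r = 0.197 in BALB/c and 0.188 in BL6, as a description across genes, which share their arrays and are not independent. The interaction of RA with LPS gave no gene past the threshold (701 at an unadjusted p under 0.05, limma).

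Genes of protein folding and secretion were higher in both strains more often than the median gene. The endoplasmic reticulum (ER) folds and glycosylates secreted and membrane proteins, and when it is loaded, the factors ATF6 and XBP1 raise its chaperones in the unfolded protein response. The list of 51 such genes was put together after the values had been seen, so it is a description. Of its 49 tested members 38 were higher in both strains (77.6%, against 27.1% of all genes) and 5 were lower in both. Of the 33 members with other probe sets above the filter, 18 had all of them moving in the same direction as the one used. At an unadjusted limma p under 0.05, 34 of the 49 were higher (69.4%, against 5.25% of all genes) and none lower. No member passed after adjustment. The list's median was 0.33 in BALB/c and 0.91 in BL6, and between 0.30 and 0.35 and between 0.83 and 0.99 under the other scalings, added constants and filters. Without LPS the medians were 0.22 and 0.25.

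The members span the whole route through the ER. Rpn1, a subunit of the oligosaccharyltransferase that adds sugar chains, was at 1718 and 3084 in BALB/c and at 582 and 2982 in BL6 (1.50 ± 0.30, limma adjusted p = 0.175). Pdia4, a disulfide isomerase gene, was at 508 and 915 in BALB/c and at 70.9 and 489 in BL6 (1.60 ± 0.36). Hspa5, the chaperone BiP, was at 7634 and 10238 in BALB/c and at 5690 and 10609 in BL6 (0.58 ± 0.17). All 3 were higher with RA on both arrays, and the BL6 change exceeded the BALB/c change. Others were Herpud1, of protein disposal (0.94 and 2.01), Sdf2l1, a partner of BiP (0.81 and 1.66), Tmed9, of vesicle traffic (0.87 and 1.27) and Manf, a secreted stress factor (0.56 and 1.54). Atf6 itself was at 0.66 and 0.91, a direction that neither of its 2 other probe sets shared in both strains, and Xbp1 was at 0.17 and 0.74. The members lower in both were Edem1, Dad1, Atf4, Spcs1 and Sec61b, with BALB/c changes from -0.17 to -0.02.

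In BL6 alone 11 of the 49 members (22.4%) were among the 48 genes past the threshold as higher (0.386% of all genes). They included Rpn1, Pdia4, Spcs3, Sdf2l1, Creld2, Tmed9 and Manf. Because the list was put together after these values had been seen, its share is a description and no separate support. The level of the list was also read on each array. Taken as the median over members relative to the array's median tested gene, it was 2.52 on the BL6 control+LPS array, the lowest of the 12, and 3.56 on the BL6 RA+LPS array, the highest. In BALB/c the values were 2.84 and 3.26. The Ro+LPS arrays were at 3.11 in BALB/c and 2.82 in BL6, so the RA+LPS array was the highest of the LPS arrays in each strain.

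The promoters of these genes are shown because the ER stress element is a known sequence of this pathway. In RefSeq promoter windows of GRCm38.p6, 250 bases before to 50 after each start, the motif searched, on both strands, was CCAAT, then 9 bases of any kind, then CCACG. It was present in 37 of 27025 genes with a window (0.137%), in 14 of the 10065 tested genes with one, and in 10 of 40 list members with one (25.0%): Calr, Canx, Creld2, Derl3, Dnajc3, Ero1b, Hsp90b1, Hspa5, Pdia6 and Syvn1. The stretches below run 5′ to 3′ on the gene's strand, with the match, on either strand, in capitals and up to 30 bases on each side.
Derl3, chr10:75893212-75893290, + strand: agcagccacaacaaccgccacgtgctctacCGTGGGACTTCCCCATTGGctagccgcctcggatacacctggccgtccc
Creld2, chr15:88819490-88819568, + strand: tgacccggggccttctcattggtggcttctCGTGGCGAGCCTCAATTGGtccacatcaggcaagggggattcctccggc
Pdia6, chr12:17266461-17266539, + strand: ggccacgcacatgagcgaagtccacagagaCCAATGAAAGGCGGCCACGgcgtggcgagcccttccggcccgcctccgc
Syvn1, chr19:6046502-6046575, + strand: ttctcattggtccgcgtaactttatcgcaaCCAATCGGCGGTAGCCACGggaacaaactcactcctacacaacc
Hspa5, chr2:34771995-34772073, + strand: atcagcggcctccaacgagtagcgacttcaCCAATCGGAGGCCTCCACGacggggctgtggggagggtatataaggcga
A match is a description of these letters and not a shown binding site. The motif TGACGTGG, whose reverse strand begins with the CCACG that ends the first motif, was in 1 of the 40 members and in 0.714% of all genes.

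The motif was searched after the ER list's values had been seen, and 10 of the 14 tested genes that hold it are members of that list, so their values describe the list again and are no separate support. The 14 genes had medians of 0.35 in BALB/c and 0.67 in BL6. Of them 10 were higher in both strains (71.4%) and none was lower in both, against 27.2% and 27.3% of the 10051 genes with a window and no match. The 4 genes outside the ER list were Alg12, a mannosyltransferase gene of sugar chain assembly (0.39 and 0.63), Adcy3, Pan2 and Spats2l, of which the last 3 were split between strains. Pdia6, a disulfide isomerase gene, had signals of 1641 and 2337 in BALB/c and 977 and 2747 in BL6. Creld2 had 1240 and 1644 in BALB/c and 723 and 2754 in BL6. Syvn1, the ubiquitin ligase of ER disposal, had 551 and 700.0 in BALB/c and 427 and 1098 in BL6. For these 3 genes the RA+LPS signal was above the control in both strains, although the only other probe set of Syvn1 did not share the direction.

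Genes of glycolysis and the hypoxia response were lower in both strains. They serve the sugar use that LPS drives in dendritic cells. Of 25 tested genes 20 were lower in both (80.0%, against 27.1% of all) and 1 was higher in both. The medians were -0.27 in BALB/c and -0.58 in BL6. At an unadjusted limma p under 0.05, 7 were lower (28%, against 3.91% of all genes). Adm, the gene of the vasodilator peptide adrenomedullin, was at 809 with LPS alone and 249.9 with RA in BALB/c, and at 892 and 192 in BL6 (-1.96 ± 0.34). Pfkp, a phosphofructokinase gene, was at 4122 and 2269 in BALB/c and at 4016 and 1319 in BL6 (-1.30 ± 0.21) and passed in BL6 alone. The glucose transporter gene Slc2a3 was at -1.32 and -1.30, and Vegfa, the vascular growth factor gene, at -0.83 and -1.25. Plod2, a collagen lysyl hydroxylase gene outside the list, was at 293 and 87.2 in BALB/c and at 122 and 20.6 in BL6 (-1.83 ± 0.37). Without LPS the list stood the other way, with medians of 0.16 and 0.30. Its level was lower again on the Ro+LPS arrays (2.28 and 2.68) than on the RA+LPS arrays (3.20 and 2.90) or with LPS alone (3.70 and 3.76).

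Genes of dendritic cell maturation were lower too: 17 of 28 in both strains (60.7%, against 27.1% of all genes). The medians were -0.23 in BALB/c and -0.62 in BL6. Without LPS the list was lower with RA as well, with medians of -0.83 and -0.65. Cd86, a costimulatory ligand of T cells, was at 5945 and 3054 in BALB/c and at 7830 and 3926 in BL6 (-1.05 ± 0.29). Cd70, the ligand of CD27, was at 736 and 296 in BALB/c and at 784 and 159 in BL6 (-1.81 ± 0.30). The costimulatory receptor gene Cd40 was at -0.31 and -1.45, the maturation marker gene Cd83 at -0.45 and -1.24, and Ccr7, which guides the cells to lymph nodes, at -0.13 and -1.03. Slamf1 stood the other way, at 0.67 and 2.33, and passed as higher in BL6 alone. Itgax, the gene of CD11c, was at 2734 and 1744 in BALB/c and at 2890 and 1013 in BL6; it passed as lower in BL6 alone. The maturation list had its highest LPS level on the Ro arrays (4.36 and 4.13), against 3.49 and 3.64 with LPS alone and 3.21 and 3.28 with RA and LPS. Of 13 MHC class II genes 8 were lower in both (61.5%, against 27.1% of all genes), with medians of -0.07 and -0.41.

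Cell type markers moved beside these groups, and their part in the results was not tested. The summed signal of the conventional dendritic cell markers went from 59971 to 52922 in BALB/c and from 53284 to 42477 in BL6, and 10 of 20 tested were lower in both. The macrophage sum went from 89127 to 98658 and from 88851 to 112946, while 8 of 20 tested were higher in both and 5 lower in both, with medians of 0.23 and -0.00; the sum is weighted to the brightest genes. Among the markers Adgre1, the F4/80 antigen, was at 0.52 and 1.45 and the complement gene C1qa at 1.28 and 0.38, while the scavenger receptor gene Marco was at -2.34 and -0.86. Of 18 tested granulocyte markers 11 were higher in both (61.1%, against 27.1% of all genes), none at an unadjusted limma p under 0.05. The granulocyte sum went from 13665 to 20840 and from 11514 to 16813. Of the 19 granulocyte markers measured, Elane, Mpo, Ctsg, Cxcr2, Padi4 and Olfm4 were not above background on any of the 4 arrays. The other 13 were above it on at least 1.

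**Figure D3:**
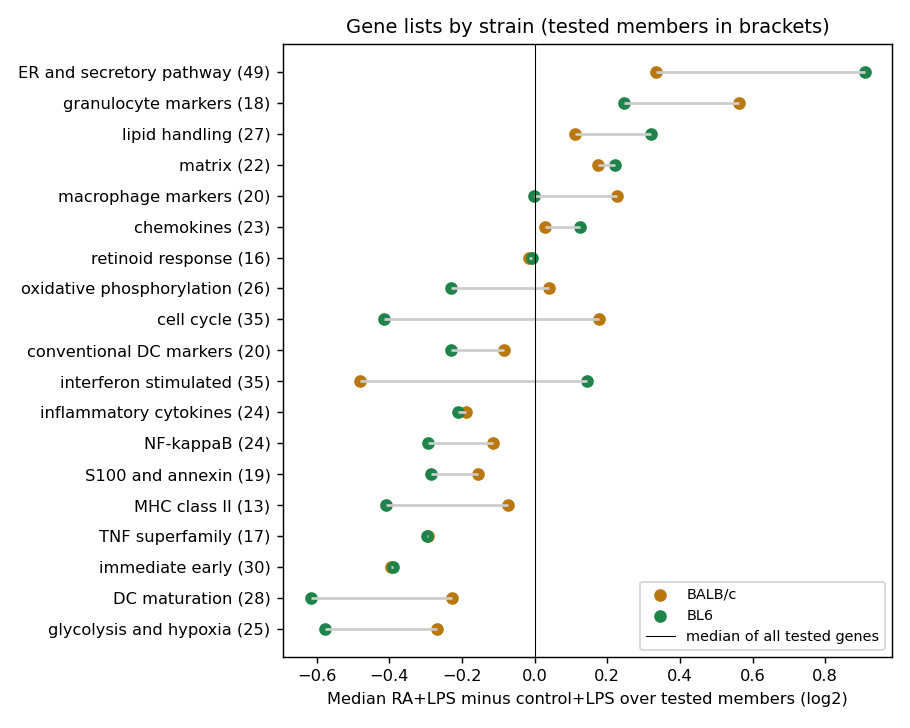
Median change with RA in LPS-treated cultures over the tested members of 19 gene lists (x axis, log2 units relative to the median of all tested genes), with 1 point per strain and no error bar because each strain has 1 array per condition. In BL6 the ER and secretory genes, a list put together after its values were seen, stand highest (0.91). The maturation and glycolysis genes stand lowest there (-0.62 and -0.58). In BALB/c the granulocyte markers stand highest (0.56) and the interferon genes lowest (-0.48). The interferon, cell cycle, oxidative phosphorylation and macrophage marker lists have points on both sides of 0, the last with -0.00 in BL6.

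Inflammatory cytokine genes were lower in both strains more often than all genes, with many split between the strains. Of 24 tested, 12 were lower in both strains and 1 higher in both. Il33, an alarmin gene, was at 153 and 49.1 in BALB/c and at 305 and 26.5 in BL6. Il15, which sustains memory T cells and NK cells, was at 1771 and 715 in BALB/c and at 2964 and 1126 in BL6 (-1.41 ± 0.27). Tnf was at 623 and 755 in BALB/c and at 837 and 7256 in BL6, and Il12a stood at -1.56 in BALB/c and 0.69 in BL6. The test of the strain difference passed for neither. The list's median was -0.19 and -0.21, but 0.00 in BL6 under quantile normalization.

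The interferon-stimulated genes, whose products restrict viruses, were among the lists in which the strains parted. In BALB/c 34 of 35 tested genes were lower with RA, and in BL6 23 of the 35 were higher. Of the 35, 22 were lower in BALB/c and higher in BL6, against 2849 of all 12429 genes. A further 12 were lower in both and 1, Irf1, was higher in both. In BL6 none of the 35 was at least 2-fold higher. The medians were -0.48 in BALB/c and 0.14 in BL6, and -0.38 and 0.36 under quantile normalization. Cxcl10 was at 1696 and 607 in BALB/c and at 6717 and 8313 in BL6. Ifit1 was at 5551 and 2879 in BALB/c and at 7175 and 9990 in BL6. Igtp, an interferon-induced GTPase gene, was at 3768 and 1901 in BALB/c and at 1995 and 3877 in BL6. On the Ro+LPS arrays the list level was lower than with LPS alone in both strains (2.66 against 4.17 in BALB/c and 3.62 against 4.83 in BL6). The test of the strain difference passed for none of these genes.

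The core of the interferon-stimulated response element, GAAA, then 2 bases of any kind, then GAAA, was searched on both strands in the same windows. It was in 14 of 26 list members with a window (53.8%) and in 3.99% of all genes. The stretches of Cxcl10 and Ifit1 are printed as examples, with matches in capitals.
Cxcl10, chr5:92349063-92349132, - strand: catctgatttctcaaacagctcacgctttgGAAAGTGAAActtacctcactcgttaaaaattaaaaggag
Ifit1, chr19:34640755-34640843, + strand: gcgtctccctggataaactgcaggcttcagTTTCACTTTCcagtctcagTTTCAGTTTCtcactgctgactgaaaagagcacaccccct
Over the 372 tested genes that hold this motif, 23.9% were lower in BALB/c and higher in BL6, against 22.9% of genes without it, so the split of the list was not seen for genes taken by the motif alone.

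Among the named genes with opposite changes and strong signals, a pair belongs to the same response. Cxcl11, a chemokine gene, was at 1348 and 457 in BALB/c and at 741 and 2233 in BL6, a strain difference of 2.86 ± 0.87 (limma adjusted p = 0.383). Ifit1bl1, a relative of Ifit1, was at 1968 and 619 in BALB/c and at 3575 and 10672 in BL6. Rhov, a small GTPase gene, went the other way, at 499 and 1010 in BALB/c and 297 and 154 in BL6. Cav1, the gene of caveolin, was at 56.9 and 149 in BALB/c and at 1873 and 994 in BL6. P2rx7, a receptor for extracellular ATP, was at 188 and 70.0 in BALB/c and at 98.2 and 291 in BL6, but the opposite directions rest on that probe set alone, since both of its other probe sets were lower in both strains. On the probe sets used, the change with RA ran in opposite directions in these 5 genes, and the test of the difference passed for none. With 1 of the Ro+LPS arrays left out it passed for 17 genes, among them Cxcl11 and Ifit1bl1 (limma adjusted p = 0.0474 without the BALB/c array and 0.0491 without the BL6 array).

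**Figure D4:**
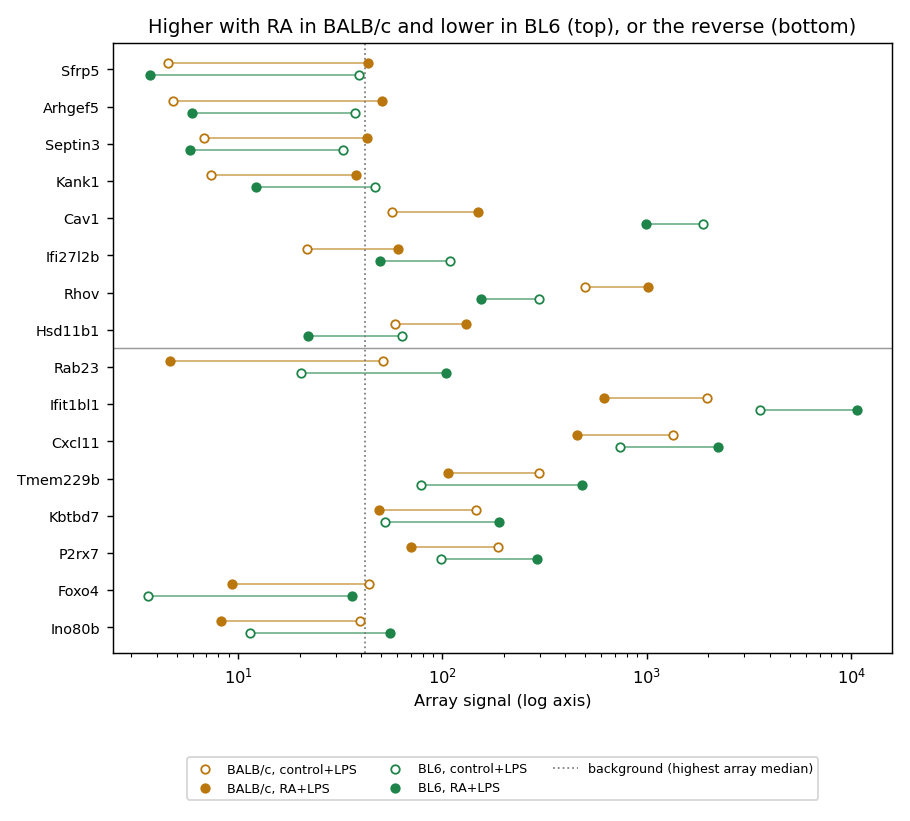
Signals (x axis, log scale) of the 8 genes higher with RA in BALB/c and lower in BL6, and of the 8 with the reverse pattern; open points are control+LPS arrays, filled points RA+LPS arrays, and colours are strains. Ifit1bl1, Cxcl11, Rhov and Cav1 lie above the dotted background line, while Sfrp5, Arhgef5, Septin3, Kank1, Foxo4 and Ino80b lie around or below it.

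Most of the remaining opposite genes were dim. Sfrp5, Arhgef5, Septin3 and Kank1 in 1 direction and Foxo4, Ino80b and Rab23 in the other had at least 1 group mean below background. Kbtbd7, Tmem229b, Ifi27l2b and Hsd11b1 had both group means above it. Kbtbd7 was at 146 and 49.1 in BALB/c and at 52.6 and 189 in BL6 (strain difference 2.65 ± 0.53, limma adjusted p = 0.230). Tmem229b was at 298 and 107 in BALB/c and at 78.3 and 479.6 in BL6. When both group means had to lie above background, 8826 genes were left, with 24 at least 2-fold higher in both, 42 lower in both and 11 opposite. No gene passed the test of the strain difference (1237 at an unadjusted p under 0.05, smallest adjusted p 0.230, limma).

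In BL6 alone 78 genes passed, 48 higher and 30 lower (0.241%), and in BALB/c alone none did (504 at an unadjusted p under 0.05, limma). The BL6 count was 0 and 0 without an RA array, 14 and 15 without a Ro array, 32 and 27 without a control array, and 977 and 986 without a Ro+LPS array (the BALB/c and BL6 array left out, in that order). In BALB/c 54 of the 78 changed in the same direction and 24 in the opposite one. Of all tested genes, 54.1% moved the same way in both strains. With 1 array against 1, the spread for these tests comes from the other conditions, and the lone arrays are assumed to vary like them. In BL6 the control side is the dimmest array of the series, and its part in the BL6 count was not tested. Txnip, which binds thioredoxin and curbs glucose uptake, was at 98.7 with LPS alone and 1515 with RA in BL6, and at 610.1 and 1110 in BALB/c. Cxcr4, the receptor of Cxcl12, was at 638 and 61.0 in BL6 and at 795 and 615 in BALB/c. Gusb, a lysosomal enzyme gene, was at 114 and 1126 in BL6 and at 512 and 810 in BALB/c. Adam8, a membrane protease gene, was at 5153 and 869 in BL6 and at 6059 and 2553 in BALB/c. In these 4 genes BALB/c changed in the same direction by less. Of genes that went the other way in BALB/c, chosen after their values were seen, Nrp1, the gene of a semaphorin and growth factor receptor, was at 2.03 in BL6 and -0.99 in BALB/c, and Gnl3, a nucleolar protein gene, at -2.04 and 0.90. The effect past the threshold in BL6 and not in BALB/c is not shown to differ between the strains: the test of the difference passed for none of the 78 with all arrays, and for Txnip, Gusb and Nrp1 with 1 of the Ro+LPS arrays left out. The histone genes H3f3a and H3f3b, which encode the same protein from similar messages, were apart in BL6 (-3.05 and 4.09), and are uncertain where probes could bind both.

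The cell cycle genes parted the other way from the interferon genes. In BALB/c 24 of 35 were higher and in BL6 26 were lower, with medians of 0.18 and -0.42. Of the 35, 20 were higher in BALB/c and lower in BL6, against 2850 of all 12429 genes. Cenpa, a centromere histone gene, was at 695 and 651 in BALB/c and at 965 and 144 in BL6, and Mki67, a proliferation marker gene, was higher in both (0.43 and 1.13). Lipid handling genes were higher in both in 13 of 27 (48.1%, against 27.1% of all genes). Among them were the scavenger receptor gene Msr1 (0.51 and 1.33) and the fatty acid synthase gene Fasn (0.55 and 1.20). Apoe was at 10955 and 11190 in BALB/c and at 2751 and 9979 in BL6.

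**Figure D5:**
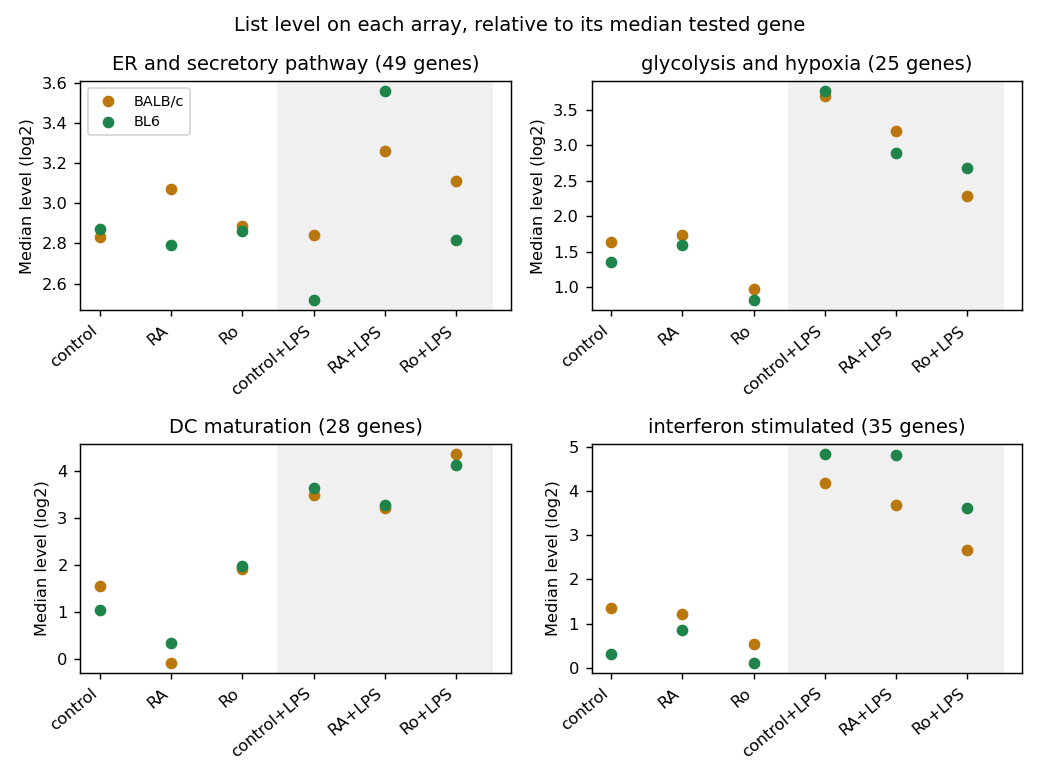
Level of 4 gene lists on each of the 12 arrays: the median over members of log2(signal + 16), relative to the array's median tested gene (y axis), by condition (x axis; shaded, with LPS), with 1 point per array. ER genes peak on the RA+LPS arrays, glycolysis genes on the control+LPS arrays and maturation genes on the Ro+LPS arrays, while interferon genes differ between RA+LPS and control+LPS in BALB/c (3.69 and 4.17) more than in BL6 (4.80 and 4.83).

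The medians of the classical RA targets stood near the median gene once LPS was present. Of 16 tested genes of the retinoid response 4 were higher in both strains and 4 lower in both. The medians were -0.01 in each, against 0.59 and 0.39 without LPS. In BL6 4 of the 16 were at least 2-fold higher (against 6.57% of all genes) and 1 lower (against 6.03%). In BALB/c 1 was at least 2-fold higher and none lower. Cyp26b1, an enzyme that degrades RA, was at 71.3 and 89.8 in BALB/c and at 57.6 and 235 in BL6 (0.95 ± 0.41, limma adjusted p = 0.494). Dhrs3, which turns retinaldehyde back to retinol, was at 293 and 346 in BALB/c and at 217 and 548 in BL6 (0.67 ± 0.28). Cyp26a1 was below background on all 4 arrays with LPS, at -0.12 and -0.58, although it was at 2.65 and 0.79 without LPS. Arg1, the arginase gene, was already at 8715 in BALB/c and 3489 in BL6 with LPS alone, and at 4713 and 4088 with RA. Its change was thus -0.83 and 0.04 with LPS and 2.73 and 5.15 without. Ptgis, the prostacyclin synthase gene, was at 0.37 and -0.06 with LPS and 2.11 and 2.17 without, with all 4 LPS signals below background. The interaction passed for none of the 3 (limma adjusted p between 0.470 and 0.826).

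Enzymes and receptors of the pathway showed small or strain-split values. Aldh1a2, which makes RA, was at 3207 and 3281 in BALB/c and at 2091 and 2057 in BL6. Rbp4, the retinol carrier gene, was at 547 and 327 in BALB/c and at 119 and 911 in BL6. Of 14 tested enzyme and carrier genes 4 were higher in both strains and 4 lower in both. Among 13 receptor and cofactor genes 3 were higher in both and 5 lower in both, with Rarg at -0.95 and -0.12 and Rxrb at -0.33 and -0.26. Rara, the gene of the alpha form of the RA receptor, was at 70.3 and 27.8 in BALB/c and at 4.22 and 16.7 in BL6, mostly below background. The letters AGGTCA, then 5 bases of any kind, then AGGTCA again, searched on both strands, were in 3 of 27025 genes with a window and in none of the 11 retinoid response genes with one.

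Genes that LPS raised in the presence of Ro were lower with RA and LPS more often than other genes. The Ro cultures, which hold a receptor antagonist, were used because their arrays lie outside this comparison: 199 genes were at least 4-fold higher with LPS in Ro cultures of both strains. With RA and LPS, 108 of these were lower than with LPS alone in both strains (54.3%, against 27.1% of all genes), and 24 were higher in both. Their medians were -0.32 in BALB/c and -0.33 in BL6. The 354 genes that LPS lowered 4-fold in Ro cultures had medians of 0.20 in BALB/c and -0.04 in BL6, and 120 of them (33.9%) were higher in both. In rank correlation over all probe sets, the BL6 RA+LPS array stood at 0.891 with the BL6 control array without LPS, and the BL6 control+LPS array at 0.859. In BALB/c the same values were 0.872 and 0.868.

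The probe sets without a gene name were read as well. Of these 9160, 50.3% moved the same way in both strains, 13 at least 2-fold higher in both and 17 lower in both. For the 46 named genes, 23 had other probe sets above the filter, and for 14 of the 23 all of them moved in the direction given. The exceptions were Cd93, Plagl1, Septin3, Rab23, Tmem229b, P2rx7, Foxo4, Rpn1 and Cd24a, a surface protein gene with changes of 1.02 and 1.26.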

How the data were processed

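Each culture was measured on 1 Affymetrix array, and the authors deposited 1 table of probe set intensity on a linear scale; per the submitters' processing notes it was made with MAS5, whose version and target are not given in the sources used here. The values ran from 0.0195 to 17488, and the number of arrays limits the precision. Of 45101 probe sets, 34945 were annotated to 1 gene (34741 matched the reference gene list), 932 to several, 9160 to none, and 64 were controls. Probe set names come from the platform annotation.

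Values were taken as log2(signal + 16) without further scaling. Per gene the probe set of highest mean was kept among those above the array median on at least 2 of 12 arrays. All 12 arrays entered the limma fits (version 3.58.1, R 4.3.3; lmFit and eBayes, the prior variance following intensity): 6 conditions plus strain, with strain terms for the 2 conditions compared in the tests of 1 strain and of the strain difference. P-values were adjusted by Benjamini and Hochberg, test the contrast before the median is subtracted, and measure the spread between these cultures, since the labels do not say that they came from separate animals. The median changes subtracted were 0.08 over both strains, -0.05 in BALB/c and 0.18 in BL6. Replicate numbers stand for strains, so strain pairs the arrays: strain differences of 15 pairs of conditions correlated with r from 0.297 to 0.696. The fitting was tested on simulated data. Motifs, levels and figures used matplotlib 3.10.9, numpy 2.4.6 and pandas 2.3.3 under Python 3.11.15.

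Named genes were the 12 with the largest smaller-of-both-strains change in each direction, 8 of each opposite pattern, the 5 smallest p in each direction, up to 4 members of each gene list and all members of the retinoid lists, provided that 1 of the 4 arrays reached background. Members and lists (42 lists) were chosen with earlier results of these data known, and the ER list after its values were seen. Alternatives were other scalings, added constants, filters, probe sets, variance models, no strain block, fewer arrays and leaving out each array; those for 1 strain alone, for all probe sets, for other genes of the text and for arrays left out of the strain tests were added after seeing the data.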

Additional observations from a re-analysis of the deposited data

How the results depend on the processing

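The count of genes over both strains stayed at 0 under both other scalings, both other added constants, other filters, all probe sets, no intensity trend and no replicate block (0 genes in limma, 566 at an unadjusted p under 0.05, without the pairing by strain). It was 9 (3 higher, 6 lower) when only the 4 arrays were fitted, 2 when only the 6 LPS arrays were, and 0 to 100 when each array was left out, 100 without the BALB/c RA+LPS array and 1 without the BALB/c Ro, BALB/c control+LPS or BL6 Ro array. The interaction with LPS gave 0 to 1 genes, 1 without the BL6 RA array. The 78 genes of BL6 alone became 486 (302 higher) under quantile normalization, 813 (534 higher) under trimmed mean scaling, 160 (120 higher) with 1 added, 16 without a filter and 0 without the intensity trend (2169 at an unadjusted p under 0.05, limma); the causes were not tested. With each of the 8 arrays outside the comparison left out, it ran from 0 to 986, the BALB/c count stayed at 0, and the strain difference gave 0 to 17 genes, 17 with 1 of the Ro+LPS arrays left out. Opposite genes numbered 59 under quantile normalization, 50 under trimmed mean scaling, 236 with 1 added and 4 with 64 added. With 1 added, 158 genes were 2-fold higher in both and 163 lower; with 64 added, 14 and 27. None of the 46 genes named for the size or p of their change turned direction in the settings run, and 24 of their 943 values passed the threshold only under an alternative. Those 46 were picked for large changes or small p on these same arrays, so their kept direction is no separate support. Of 90 other genes given in the text, 68 kept the direction of their change over both strains and 22 did not. Among the 22 were Cxcl10, Ifit1, S100a8 and S100a9 without the BALB/c RA+LPS array, Ccr7 without the BL6 RA+LPS array and Rbp4 without the BL6 control+LPS array. Of the list medians 378 moved by less than their spread and 126 by more. The strain terms could not be fitted with 4 or 6 arrays or with 1 of the 4 compared left out, and were not run without the block; the interaction could not be fitted with 4 or 6 arrays. Signals below background limit what can be said of dim genes, whose changes depend on the added 16.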
